A study of Mus musculus with 8 samples.

Results

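The liver X receptors (LXRs) and the genes through which they drive cholesterol out of the cell were followed in mouse neural stem cells (NSCs) before and after X-ray irradiation (irr). The set holds 10 genes: the receptors Nr1h3 (LXRα) and Nr1h2 (LXRβ), the exporters Abca1 and Abcg1, the lipoprotein genes Apoe, Apoc1 and Pltp, and Mylip, Lpcat3 and Srebf1. They are listed by name, as known LXR targets and their receptors. The set was chosen with earlier results of these data known, so that counts over it are a description and no test. A gene was read from each probe set whose annotation gives that symbol alone, and 9 of the 10 had at least 1, with 13 probe sets in all, out of 18193 genes with such a probe set on the array. Nr1h2 is named only.

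RNA was measured on Affymetrix mouse genome arrays in NSCs derived from mouse embryonic stem cells, which were grown in N2-supplemented Euromed-N medium with EGF and FGF2 at 20 ng/ml each. One group was 4 cultures that were not irradiated (non-irr), and the other was 4 cultures taken on day 7 after X-rays to a total of 10 Gy, given at 2 Gy/min for 5 min (irr). The labels name no transgene or deletion in either group, the irr cultures were not split again before collection, and the series describes the samples as biological quadruplicates, so that n = 4 arrays per group throughout. The methods name NSCs of several genetic backgrounds, and the labels do not give the line on these arrays or the day on which the non-irr cultures were taken. In bulk RNA, fewer cells of a type and less RNA per cell cannot be told apart.

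LXRs are nuclear receptors that sit on DNA as heterodimers with retinoid X receptors (RXRs) and are activated by oxysterols, oxidised forms of cholesterol that build up when a cell holds too much of it. Their targets load cholesterol and phospholipid onto lipoproteins outside the cell and reduce the uptake of lipoprotein cholesterol. In the brain, where lipoproteins do not cross from the blood, ApoE-bearing particles made mostly by astrocytes carry cholesterol between cells. The opposing arm, the SREBP2 pathway, turns on cholesterol synthesis and uptake when sterols are low.

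The classical LXR binding site is a direct repeat of a hexamer with 4 bases between the copies (DR4). Promoter windows from RefSeq (GRCm38.p6), 300 bases long and ending 50 bases after a start site, were held for 8 of the 10 genes (13 windows) and searched on both strands for the full repeat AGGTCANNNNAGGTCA and for a looser form, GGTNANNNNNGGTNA, which was written with known LXR sites in mind. Any match to the full repeat is also a match to the looser form. None of the 13 windows held the full repeat, which is in 0.0152% of all 32851 windows. The looser form is in 0.718% of all windows and was found in those of Abca1 and Srebf1 alone among the 8 genes. Since the form was written from known LXR sites, matches in known targets were favoured from the start. The share of all windows is therefore no test of these matches. The 3 windows below are given because those of Abca1 and Srebf1 hold the match, in capitals, while that of Mylip, a gene with a large change, holds none; all are written 5′ to 3′ on the strand of the gene.
Abca1, chr4:53159846-53160145, minus strand: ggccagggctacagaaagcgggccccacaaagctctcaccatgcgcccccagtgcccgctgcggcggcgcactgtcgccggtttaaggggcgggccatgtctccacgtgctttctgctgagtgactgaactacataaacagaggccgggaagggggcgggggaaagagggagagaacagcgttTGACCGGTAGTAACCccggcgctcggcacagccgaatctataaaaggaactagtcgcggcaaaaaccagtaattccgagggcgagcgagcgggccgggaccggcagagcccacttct
Srebf1, chr11:60210422-60210721, minus strand, window 3 of 3: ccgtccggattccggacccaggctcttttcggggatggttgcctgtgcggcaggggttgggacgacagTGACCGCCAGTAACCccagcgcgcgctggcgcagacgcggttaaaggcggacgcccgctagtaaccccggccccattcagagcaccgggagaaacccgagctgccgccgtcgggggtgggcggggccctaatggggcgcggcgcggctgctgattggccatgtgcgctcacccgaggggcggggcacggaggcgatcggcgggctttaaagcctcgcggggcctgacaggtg
Mylip, chr13:45389492-45389791, plus strand: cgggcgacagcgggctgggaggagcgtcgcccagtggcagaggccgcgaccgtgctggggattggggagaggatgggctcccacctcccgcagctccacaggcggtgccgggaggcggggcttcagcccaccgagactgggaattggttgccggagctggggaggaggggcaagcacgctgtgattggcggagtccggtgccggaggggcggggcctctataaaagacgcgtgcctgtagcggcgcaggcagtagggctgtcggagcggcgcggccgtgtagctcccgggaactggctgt

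On the motif's own strand the match reads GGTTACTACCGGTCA in Abca1, centred 60 bases before the start site, and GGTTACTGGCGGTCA in Srebf1, centred 175 bases before it. The window of Fasn, the fatty acid synthase gene and a further known LXR target, held the same 15 bases as that of Abca1, centred 218 bases before its start. A sterol-response motif of the type TCACNCCAC, in 1.24% of all windows, was in none of the 13. A match of letters is a description of these windows and was not tested for binding.

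Calls of higher or lower rest on limma and an adjusted p under 0.05, with Benjamini-Hochberg adjustment over all 21919 probe sets with an intensity over 100 (log2 6.64) on at least 1 array, and the brightest probe set stands for each gene. Of the 9 genes with a probe set, 7 passed that filter and all 7 were higher in irr NSCs. This must be read against the breadth of the response, since 40.2% of all 11372 genes that passed were called higher and 37.1% lower, and 75.1% of probe sets were called either way. Of the called genes 52.0% were higher, or 67.8% when the arrays were centred on 7 reference genes. The reference genes had themselves changed, with 4 called lower and 1 higher before centring and a median log2 fold change of -0.13. Centring on them moved the median change of all genes to 0.19 on the log2 scale, and the 7 genes of the set were still higher. Changes of at least 2-fold were rarer, with 8.9% of all genes at least 2-fold higher and 6.17% at least 2-fold lower. Of the 7 genes of the set, 4 were at least 2-fold higher: Abca1, Apoe, Pltp and Mylip. The median change of the 7 was 1.97 on the log2 scale (range 0.41 to 5.48), where that of all genes was 0.01. The groups of 4 arrays did not overlap for any of the 7, which was so for 73.4% of all genes. Apoc1 passed the filter only through the irr arrays, so that a difference was needed for it to be tested.

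**Figure D1:**
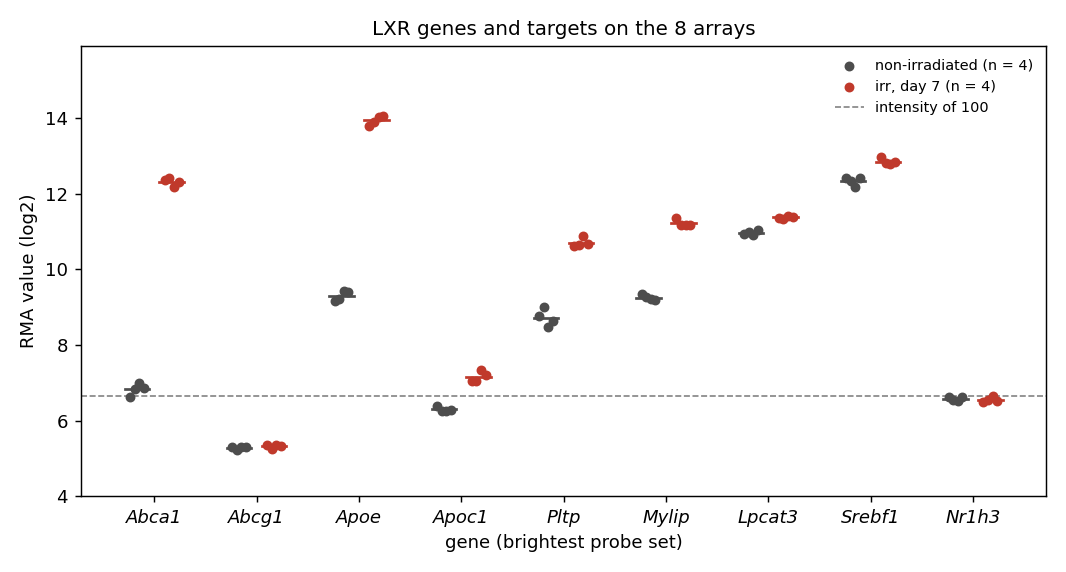
RMA values (log2, y axis) of the brightest probe set of each gene (x axis) on the 4 non-irr (grey) and 4 irr (red) arrays, with the mean of each group as a bar and an intensity of 100 as a dashed line. Abca1 and Apoe show the widest gaps, from means of 6.83 and 9.29 to 12.31 and 13.94, while Abcg1 and Nr1h3 lie below the dashed line on all 8 arrays; levels of different genes cannot be compared on this axis.

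Abca1 encodes the membrane transporter that hands cholesterol and phospholipid to lipid-poor apolipoproteins, the rate-limiting step of export. Its brightest probe set (1421840_at) read 6.64, 6.84, 6.99 and 6.87 on the non-irr arrays and 12.36, 12.41, 12.18 and 12.30 on the irr arrays. All 4 irr arrays thus lay over 5 log2 units above all 4 non-irr arrays, of which 3 passed an intensity of 100. The log2 fold change was 5.48 ± 0.08 (SE), or 44.7-fold, with an adjusted p of 1.2e-10 from limma.

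The other 2 probe sets of Abca1 stayed below an intensity of 100 on every array and were not tested. The probe set 1421839_at read 4.58 to 4.79 on non-irr and 5.83 to 6.50 on irr arrays, and 1450392_at read 3.25 to 3.68 and 4.27 to 4.70. Both were higher on every irr array than on any non-irr array, so that the 3 probe sets shared a direction, but the size of the change rests on the brightest alone.

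Abcg1, a transporter that passes cholesterol on to mature high-density lipoprotein, showed no such increase. Its brightest probe set (1423570_at) read 5.30, 5.23, 5.31 and 5.29 on non-irr arrays and 5.36, 5.25, 5.34 and 5.32 on irr arrays. The groups overlapped and lay below an intensity of 100 throughout, so that Abcg1 was not detectably expressed by this measure and a small change could not have been seen. The second probe set (1455221_at) also lay below it, at 4.62 to 4.84 and 4.58 to 4.94. Without the intensity filter, Abcg1 had an adjusted p of 0.62 in limma. No size is given for the difference between the changes of Abca1 and Abcg1, since that of Abcg1 could not be measured.

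Apoe encodes the main apolipoprotein of the brain, which accepts the lipid that Abca1 exports. It read 9.15, 9.22, 9.41 and 9.39 on non-irr arrays and 13.78, 13.89, 14.03 and 14.04 on irr arrays. The lowest irr array lay more than 4 log2 units above the highest non-irr array, and irr replicates 3 and 4 lay slightly above 1 and 2. The log2 fold change was 4.64 ± 0.08 (SE), or 25.0-fold (limma, adjusted p = 2.3e-10). Its single probe set (1432466_a_at) is marked as shared by alternative transcripts of the gene, so that these cannot be told apart.

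Apoc1, a small apolipoprotein gene beside Apoe, was much dimmer. Its probe set read 6.40, 6.25, 6.27 and 6.28 on non-irr arrays, all below an intensity of 100, and 7.05, 7.04, 7.33 and 7.20 on irr arrays, all above it. Apoc1 was at least 1.43-fold higher in irr NSCs (fitted log2 fold change 0.86 ± 0.07, limma, adjusted p = 2.5e-06). A size for the change of Apoe over that of Apoc1 is not given, since the latter has only a lower bound.

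The genes that flank Apoe, looked at after the values of Apoe were known, were not called higher, apart from Apoc1. In RefSeq's order along the chromosome, Apoc2 and Apoc4, apolipoprotein genes on the side of Apoc1, stayed below an intensity of 100 on all arrays, with means of 4.44 and 5.43 in non-irr and 4.52 and 5.27 in irr. On the other side Tomm40, which encodes the import pore of the outer mitochondrial membrane, was lower in irr NSCs (log2 fold change -1.05 ± 0.04, adjusted p = 2.2e-08 in limma). Nectin2 (-0.07 ± 0.08, adjusted p = 0.47) and Bcam (-0.14 ± 0.06, adjusted p = 0.066), both cell adhesion genes, were not called.

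Pltp encodes the phospholipid transfer protein, which moves phospholipid between lipoproteins and remodels high-density particles. The brighter probe set (1456424_s_at, marked as shared by more than 1 transcript) read 8.75, 9.01, 8.47 and 8.64 on non-irr arrays and 10.62, 10.64, 10.88 and 10.66 on irr arrays. The non-irr arrays were more spread out than for any other of the 7 genes, with a range of 0.55, but no array of one group reached the other. Pltp was 3.95-fold higher (log2 fold change 1.98 ± 0.11, adjusted p = 1.4e-07). The second probe set (1417963_at) gave 5.68 to 6.15 and 7.66 to 7.88, at least 2.24-fold higher, since its non-irr arrays all lay below an intensity of 100 (fitted log2 fold change 1.93 ± 0.10, adjusted p = 6.3e-08, limma). The probe sets of Pltp thus differed by little in the fitted change.

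**Figure D2:**
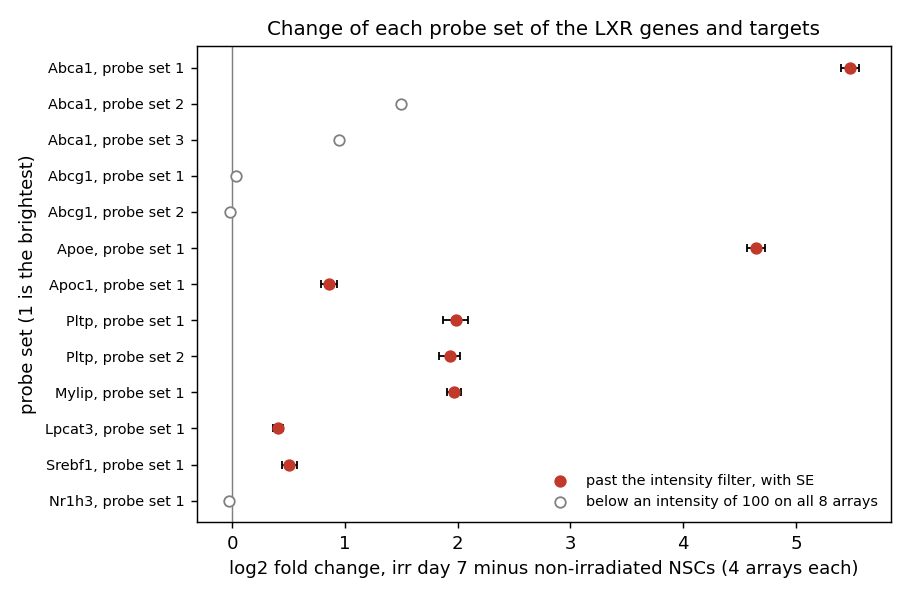
Log2 fold change (x axis, irr day 7 minus non-irr, 4 arrays each) of each of the 13 probe sets (y axis), with the SE as a bar where the probe set passed the intensity filter (red) and open grey points where all 8 arrays lay below an intensity of 100. Filled points run from 0.41 for Lpcat3 to 5.48 for the brightest probe set of Abca1, and the open points of Abcg1 and Nr1h3 lie close to 0.

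Mylip (also IDOL) encodes a ubiquitin ligase that sends lipoprotein receptors, Vldlr and Lrp8 among them, for degradation. It read 9.34, 9.26, 9.21 and 9.19 on non-irr arrays and 11.36, 11.17, 11.16 and 11.16 on irr arrays. The values spanned 0.15 in non-irr and 0.20 in irr, where replicate 1 was the highest. Mylip was 3.91-fold higher (log2 fold change 1.97 ± 0.06, adjusted p = 3.1e-09 in limma).

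The mRNAs of 2 of the receptors that Mylip acts on went in opposite directions. Vldlr, the very-low-density lipoprotein receptor, was 3.98-fold higher (log2 fold change 1.99 ± 0.06, adjusted p = 2.6e-09), and all 6 of its probe sets past the filter were called higher. Lrp8, the apolipoprotein E receptor 2 that also binds reelin, was lower (log2 fold change -2.18 ± 0.10, adjusted p = 4.2e-08), as were all 3 of its probe sets. The array measures mRNA and not the receptor protein on which Mylip acts.

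Srebf1 and Lpcat3 tie the LXRs to fatty acid and phospholipid metabolism, and both changed little. Srebf1, which encodes the transcription factors SREBP1a and SREBP1c that drive fatty acid synthesis, read 12.42, 12.34, 12.18 and 12.41 on non-irr arrays and 12.96, 12.81, 12.78 and 12.83 on irr arrays. It was 1.42-fold higher (log2 fold change 0.51 ± 0.07, adjusted p = 7.2e-05 in limma), with all irr arrays above all non-irr arrays. The single probe set (1426690_a_at) is marked as shared by alternative transcripts, and the SREBP1a and SREBP1c forms cannot be told apart. Lpcat3, an acyltransferase that places polyunsaturated fatty acids into membrane phospholipids, read 10.94, 10.97, 10.92 and 11.03 on non-irr arrays and 11.36, 11.33, 11.40 and 11.39 on irr arrays. The groups were tight and did not overlap, and the increase was 1.32-fold (log2 fold change 0.41 ± 0.04, adjusted p = 1.8e-05).

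Srebf2, the related gene for the regulator of cholesterol synthesis, was lower in irr NSCs by its brightest probe set (log2 fold change -1.17 ± 0.06, adjusted p = 5.0e-08 in limma). Its other probe set fell less (-0.52 ± 0.08, adjusted p = 1.4e-04 in limma). By the brightest probe sets, the changes of Srebf1 and Srebf2 differed by 1.68 on the log2 scale. The difference between the genes had an SD of 0.10 over non-irr and 0.15 over irr arrays. An exact two-sided permutation of the 8 arrays gave p = 0.029, the smallest that 4 against 4 can give (0.029 when adjusted over 3 pairs of genes, of which the others hold Abcg1 or Apoc1). With the mean of all probe sets of each gene, the difference between the changes was 1.35.

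Of the receptors, Nr1h3 could be read, at the edge of detection. The probe set (1450444_a_at) gave 6.61, 6.55, 6.52 and 6.63 on non-irr arrays and 6.48, 6.54, 6.64 and 6.53 on irr arrays. All 8 values lay just under an intensity of 100, the groups overlapped, and the means differed by -0.03. Nr1h3 was therefore outside the test, and without the filter it had an adjusted p of 0.70. With the arrays centred on reference genes the sign turned and it passed the threshold (0.14, adjusted p = 0.029), below the 0.19 by which the median of all genes had moved.

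Counts in this and the following lists stand beside 40.2% of all genes called higher and 37.1% called lower. Among RXR partners and coregulators, 5 of 8 tested genes were higher and 3 were not called, with a median log2 fold change of 0.43. These were 7 higher with centring on reference genes, and 5 higher and 1 lower after a further quantile normalization. By their brightest probe sets Nrip1, a corepressor of nuclear receptors (0.84 ± 0.06), and the coactivators Ncoa1 (0.79 ± 0.05) and Ncoa2 (0.74 ± 0.05) led the list, all below 2-fold. Of the 3 probe sets of Nrip1 past the filter, only that 1 was called, and the lowest was at 0.12. Rxra, which encodes the RXRα partner, was higher by its brightest probe set (0.41 ± 0.06, adjusted p = 1.7e-04 in limma), but its second probe set past the filter was lower (-0.34 ± 0.04, adjusted p = 3.9e-05), and their mean was not called (0.04, adjusted p = 0.50). Its direction is thus uncertain. Of the enzymes that make or clear oxysterols, 3 of 9 passed the filter. Hsd3b7, which acts in the path from oxysterols to bile acids, was higher (1.27 ± 0.05, adjusted p = 1.6e-08), as was Cyp46a1, the neuronal cholesterol hydroxylase (0.54 ± 0.10, adjusted p = 5.5e-04), while Cyp39a1, an oxysterol 7α-hydroxylase, was at least 1.05-fold lower (adjusted p = 1.1e-05). Ch25h and Cyp27a1, which make side-chain oxysterols, lay below an intensity of 100 on all arrays.

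Further known LXR targets did not move as a block. Of 9 tested, 4 were higher, 1 was lower and 4 were not called, with a median log2 fold change of 0.02. The split was 6 higher with centring on reference genes, and 4 higher and 2 lower after a further quantile normalization. Of the 4 higher genes 2, Mertk and Apod, passed the filter only through the irr arrays. Mertk, a receptor for the engulfment of dying cells, was at least 6.24-fold higher (fitted log2 fold change 2.83 ± 0.07, adjusted p = 1.2e-09). Lpl, the lipoprotein lipase, was 5.54-fold higher (2.47 ± 0.05, adjusted p = 4.3e-10), and Apod, the apolipoprotein D gene, at least 1.15-fold higher (adjusted p = 6.9e-05, limma). In contrast the lipogenic targets, named after their values were seen, showed log2 fold changes close to 0, with 0.02 ± 0.04 for Fasn, -0.06 ± 0.04 for Scd1 and -0.07 ± 0.04 for Scd2, none of them called (adjusted p = 0.64, 0.23 and 0.19). These values rest on the brightest probe sets: averaged over every probe set past the filter, Scd1 was lower (-0.84, adjusted p = 5.1e-09 in limma), as was Scd2 (-0.46, adjusted p = 5.6e-05), and with centring on reference genes Fasn (0.19, adjusted p = 0.0025) and Scd1 (0.12, adjusted p = 0.023) were called higher, where the median of all genes had moved to 0.19. Abca1 and Fasn, whose windows hold the same 15-base match, had log2 fold changes of 5.48 and 0.02 by their brightest probe sets. The part of the match in either change was not tested.

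The receptors and carriers of lipoproteins held 6 higher, 3 lower and 1 not called of 10 tested, with a median log2 fold change of 0.50 (6 higher and 1 lower with centring on reference genes). Lrp1, the large receptor that takes up ApoE-bearing particles, was 7.57-fold higher (2.92 ± 0.05, adjusted p = 2.0e-10), and its 2 probe sets gave 1.11 and 2.92. Sorl1, a sorting receptor that binds ApoE, was also higher (2.16 ± 0.08, adjusted p = 8.9e-09). Lrp8, above, was the largest decrease of this list. Genes of cholesterol transport within the cell were split, with 5 higher, 5 lower and 3 not called of 13 tested and a median of 0.01 (6 higher and 3 lower with centring on reference genes). That split lay near the shares of all genes, 40.2% higher and 37.1% lower. Stard4, a cytosolic sterol carrier, was lower (-1.72 ± 0.12, adjusted p = 6.3e-07), Gramd1b, a carrier from plasma membrane to endoplasmic reticulum, was at least 2.02-fold higher (adjusted p = 4.0e-07), and Abca2, a transporter of late endosomes, was higher by 0.52 ± 0.11 (adjusted p = 0.0019). Npc2, which lifts cholesterol out of the lysosome, was higher (0.45 ± 0.05, adjusted p = 2.9e-05), whereas its partner Npc1 was lower by a small margin (-0.22 ± 0.07, adjusted p = 0.019, limma) that was lost without non-irr replicate 4 (adjusted p = 0.052) or irr replicate 4 (adjusted p = 0.055) and with centring on reference genes (adjusted p = 0.56). Soat1 is named only.

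**Figure D3:**
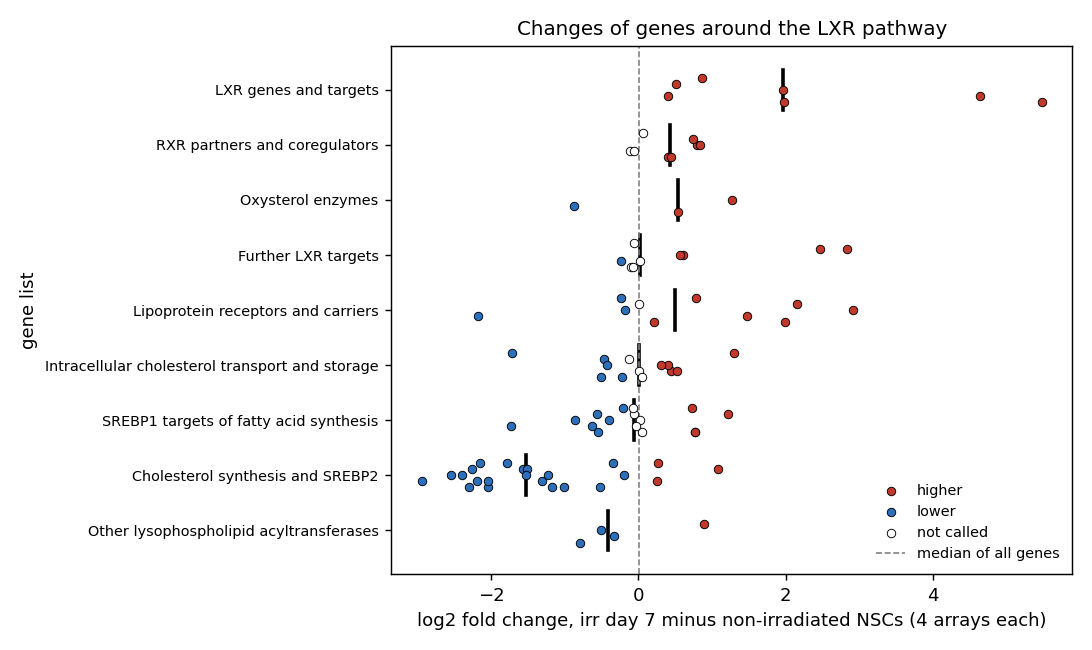
Log2 fold change (x axis, irr day 7 minus non-irr, 4 arrays each) of each tested gene in the set and in 8 lists around it (y axis), red where called higher, blue where called lower and white where not called, with the median of each list as a bar and that of all genes as a dashed line. All 7 tested LXR genes and targets lie to the right of 0, and 20 of 23 genes of cholesterol synthesis and the SREBP2 system lie to the left.

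Downstream of Srebf1, the SREBP1 targets of fatty acid synthesis were 4 higher, 7 lower and 5 not called of 16 tested, with a median log2 fold change of -0.06 (8 higher and 6 lower with centring on reference genes). Fasn, Scd1 and Scd2 are also in the list of further LXR targets, so that their uncalled values count in both lists. Elovl6, a fatty acid elongase, was lower (-1.73 ± 0.06, adjusted p = 9.6e-09), as was Pnpla3, a lipase (-0.86 ± 0.08, adjusted p = 3.4e-06). Thrsp, a regulator of lipogenesis, was higher by its brightest probe set (1.22 ± 0.05, adjusted p = 2.8e-08) and by a second, and slightly lower by its other probe set (-0.16 ± 0.06, adjusted p = 0.046, limma). Genes of cholesterol synthesis and the SREBP2 system were 20 lower and 3 higher of 23 tested, with a median of -1.53 and 17 at least 2-fold lower. The 3 higher genes, Insig2 (1.08 ± 0.06), Mbtps1 (0.27 ± 0.05) and Scap (0.25 ± 0.05), belong to the SREBP2 system. Those that fell most were Fdps (-2.94 ± 0.06), Tm7sf2 (-2.54 ± 0.06) and Fdft1 (-2.40 ± 0.06), which encode farnesyl diphosphate synthase, a sterol reductase and squalene synthase. Among acyltransferases related to Lpcat3, 1 was higher and 3 were lower of 4 tested, with a median of -0.42. Mboat7 was higher by its brightest probe set (0.89 ± 0.06) and not called by its other past the filter (0.23, adjusted p = 0.087), Lpcat1 was lower (-0.79 ± 0.09), and Mboat2 was lower by its brightest probe set (-0.51 ± 0.05) and higher by its other (0.19 ± 0.05, adjusted p = 0.0092 in limma).

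The genes whose profile over the 8 arrays was most like that of Abca1, by the root mean square difference of log2 values after each gene's non-irr mean was taken off, were Abca8a (0.10), Aqp4 (0.16) and Cd36 (0.35), out of 11371 genes compared. Abca8a encodes a further ABCA transporter, Aqp4 the water channel of astrocytes and Cd36 a scavenger receptor that takes up fatty acids and oxidised lipoprotein. Those most like Apoe were Rnase1 (0.21), a secreted ribonuclease, Nupr1 (0.27), a stress-induced chromatin protein, and Gad1 (0.33), an enzyme of GABA synthesis. Apart from Abca8a, these genes lay below an intensity of 100 on all non-irr arrays, so that their likeness rests on changes of uncertain size.

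Microglia, macrophages and astrocytes express Abca1 and Apoe strongly, and markers of these and other cells were read beside them. Of 14 microglia and macrophage markers 13 had a probe set, and 10 of these, including Aif1, Cx3cr1, Tmem119, Itgam, Ptprc, Trem2 and C1qa, lay below an intensity of 100 on all 8 arrays. The intensities of the 13 summed to 664 to 743 on non-irr and 900 to 994 on irr arrays. Cd68, a lysosomal glycoprotein, was at least 2.75-fold higher (adjusted p = 9.4e-09), P2ry12 was higher by 0.52 ± 0.08 on the log2 scale (adjusted p = 3.1e-04) and Csf1r was not called (adjusted p = 0.61, limma). All 9 astrocyte markers passed the filter, 7 higher and 2 lower, with sums of 18996 to 20082 and 24005 to 24570. The 3 that were at least 2-fold higher were Aqp4 (at least 26.1-fold), Agt (3.61 ± 0.09 on the log2 scale) and Slc1a2 (2.74 ± 0.11). Aldoc, a bright marker that weighs much in the sums, was lower (-0.73 ± 0.05, adjusted p = 8.1e-07 in limma). Gfap was among the 2 lower ones by its brightest probe set (-0.18 ± 0.06, adjusted p = 0.019), while its other 2 probe sets, below an intensity of 100, were higher on all irr arrays than on any non-irr array. For mesenchymal and adipocyte markers the sums were 934 to 1007 and 2096 to 2325, with 3 higher and 1 lower of 4 tested, and all 3 that were higher (Fabp4, Adipoq and Pparg) passed the filter only through the irr arrays. The lower one was Acta2, over an intensity of 100 on all arrays (-1.75 ± 0.06, adjusted p = 9.1e-09 in limma). Here Fabp4, a fatty acid carrier, was at least 13.4-fold higher, while Col1a1, Col1a2, Pdgfrb and Tagln were below an intensity of 100 on all arrays. The 8 markers of NSCs themselves all passed the filter. By their brightest probe sets 3 were higher, 2 lower and 3 not called, and their sums were 53267 to 55273 and 58194 to 61771. Fabp7 and Vim, bright markers called higher, weigh much in these sums. Nes, which encodes Nestin, was not called by its brightest probe set (0.07 ± 0.05, adjusted p = 0.17 in limma). Its other 2 probe sets, also past the filter, were lower (-0.83 ± 0.18, adjusted p = 0.0021, and -0.95 ± 0.20, adjusted p = 0.002, limma). The direction of Nes is thus uncertain. By their brightest probe sets, 1 neuronal marker was higher and 3 were lower of 5 tested (sums 7027 to 8034 and 7806 to 8379). The 3 oligodendrocyte markers tested were not called by theirs (sums 7543 to 8212 and 6544 to 7821). A dimmer probe set past the filter was lower for Sox10 (-0.25 ± 0.06, adjusted p = 0.0025) and for Cnp (-0.27 ± 0.07, adjusted p = 0.0079, limma). The remaining probe set of Cnp was not called (-0.07 ± 0.09, adjusted p = 0.46 in limma). Below an intensity of 100 on all arrays were 4 of 5 endothelial and 3 of 4 pluripotent markers. The part of cell composition in the changes of Abca1, Apoe and the other targets was not tested.

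Arrays of the same group correlated at 0.996 to 0.998 and arrays of different groups at 0.972 to 0.976, and the first principal component, with 92.0% of the variance, separated the groups. The second (3.68%) separated irr replicates 1 and 2 from 3 and 4. Leaving out irr replicates 3 and 4 together, or 1 and 2 together, which was decided after seeing the data, left 7 genes of the set higher each time, with log2 fold changes of 5.55 or 5.41 for Abca1 and 4.54 or 4.74 for Apoe. The gap between the 3′ and 5′ control probe sets of actin, a sign of RNA length, was 0.26 ± 0.03 (SD, n = 4) in non-irr and 0.51 ± 0.07 in irr arrays (p = 0.029 by exact permutation, two-sided), and that of the Gapdh controls was -0.08 ± 0.04 and -0.06 ± 0.03 (exact permutation test, p = 0.71). Their part in the changes above was not tested.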

How the data were processed

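RNA of 4 non-irr and 4 irr NSC cultures was hybridised to Affymetrix mouse genome arrays. The authors read the arrays with GCOS and normalized them with RMA (versions not given in the sources used here), and the log2 values used here are those RMA values as deposited, for 45101 probe sets. Quantile normalization in RMA forces 1 distribution on all arrays, so that a shift of all genes together cannot be seen. Detection calls were not used.

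Gene names come from the annotation of the array platform (34958 with 1 symbol, 932 with several, 9211 with none listed), and symbols were looked up through the Entrez number for 34754. Probe sets with several symbols or none, and 64 controls, were left out of gene results. Those that exceeded an intensity of 100 on 1 array or more were tested with limma 3.58.1 in R 4.3.3 (two-sided, Benjamini-Hochberg over 21919 probe sets), and fold changes of at least 2 were counted apart. This was tested on simulated data first. Errors are the model's SE, or the SD over 4 arrays. Where a group lies below 100 on every array, a fold is given as at least the brighter group's mean over that intensity, and the number of arrays limits the precision. Pairs of genes were compared by exact permutation of the 8 arrays.

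The members and lists were chosen with earlier results of these data known. Named are the 10 genes, Rxra, Vldlr, Lrp8, Srebf2, Ch25h, Cyp27a1, Cyp46a1, Npc1, Npc2, Soat1, the 3 called genes of each list with the largest change, and the 3 genes most like Abca1 and Apoe. Other genes were named after their values were seen, or as markers. Marker lists were NSC, astrocyte, microglia and macrophage, neuron, oligodendrocyte, endothelial, mesenchymal and adipocyte, and pluripotent. Of 5 pairs written down, 3 were tested, and the others are not reported here. Alternatives were other intensity filters, centring on array medians or reference genes, quantile normalization once more, trend and robust settings, array weights or a replicate block in limma, other choices of probe set, a 2-fold threshold and leaving out arrays. Figures were drawn with matplotlib 3.10.9.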

Additional observations from a re-analysis of the deposited data

Results flagged for a closer look

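Of 100 groups of 4 arrays checked for 1 array apart from the other 3, 7 had one, where chance alone gives about 1 in 20. The measure is the gap to the nearest other array over the range of the group, held against Dixon's critical value for 4 samples. In the irr group, Mylip was higher in replicate 1 (11.36 against 11.16 to 11.17, gap share 0.939), and Pltp by 1456424_s_at was higher in replicate 3 (10.88 against 10.62 to 10.66, 0.850). Lpl was lower in replicate 3 of both groups, at 9.63 against 9.72 to 9.73 in non-irr (0.913) and at 12.06 against 12.20 to 12.22 in irr (0.918). Elovl6 was lower in irr replicate 3 (9.41 against 9.59 to 9.63, 0.835), and Cyp39a1 in irr replicate 2 (5.55 against 5.89 to 5.95, below an intensity of 100, 0.838). Npc2 was lower in non-irr replicate 2 (13.14 against 13.26 to 13.29, 0.845). Each of these gaps was smaller than the difference between the groups for that gene.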

How the results depend on the processing

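All 7 tested genes of the set were called higher under every alternative that tested them, short of the 2-fold threshold. With an intensity over 200 required 6 genes were tested, and with plain probe set identifiers 5, all higher. Log2 fold changes ran from 5.41 to 5.65 for Abca1, 4.54 to 4.81 for Apoe, 1.91 to 2.14 for Mylip, 1.90 to 2.15 for Pltp, 0.75 to 1.03 for Apoc1, 0.45 to 0.68 for Srebf1 and 0.38 to 0.58 for Lpcat3, with 9.7e-04 (Srebf1) as the highest adjusted p. Centring on 7 reference genes (Actb, Hprt, Tbp, Rplp0, Ywhaz, Pgk1 and Sdha) moved the median of all genes to 0.19 and the share of calls that are higher from 52.0% to 67.8% (59.0% to 73.7% at 2-fold). Before centring, 4 of these reference genes were called lower and 1 higher. The centring left 5366 probe sets lower in place of 8128. It gave Abcg1 0.21 and Nr1h3 0.14 (adjusted p = 0.029 in limma, where the sign was negative before). Scd1 was at 0.12 (adjusted p = 0.023 in limma, also negative before). At 2-fold, 4 genes of the set were higher, with 1012 of all genes higher and 702 lower, and 1856 probe sets higher and 1311 lower. The lists then held 0 called genes for RXR partners, 1 for oxysterol enzymes, 2 for further LXR targets, 5 for lipoprotein receptors, 2 for intracellular transport, 2 for SREBP1 targets and 0 for other acyltransferases. Oxysterol enzymes called were 5 with no filter and 1 with an intensity over 200, which also left 3 further LXR targets, and plain identifiers left 6 transport genes, fewer genes being tested in the last 3 cases. Leaving out irr replicates 3 and 4 gave pair differences of 5.53, 3.79 and 1.78, and leaving out 1 and 2 gave 5.36, 3.77 and 1.57 (Abca1 against Abcg1, Apoe against Apoc1, Srebf1 against Srebf2), each at an exact permutation p of 0.067, the smallest that 2 against 4 arrays can give; the first 2 pairs hold a gene below an intensity of 100 in a whole group, so that their size is not interpretable. With the mean of all probe sets the first was 2.64, as the dim probe sets of Abca1 enter. The difference between Srebf1 and Srebf2 was then 1.35, as the other probe set of Srebf2 enters. With plain identifiers Mboat2 turned to 0.19 (adjusted p = 0.010 in limma), which is its other probe set. Same-numbered arrays of the groups had correlations of deviations of 0.04, 0.38, -0.21 and 0.51, and differently numbered arrays had -0.48 to 0.38. These few values cannot settle whether the numbers pair the cultures. With a replicate block 7 genes of the set were higher, and 4585 of all genes were higher and 4220 lower. Values of probe sets under an intensity of 100, such as those of Abcg1 and Nr1h3, bound what could be seen.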
